A study of Homo sapiens with 8 samples.

Results

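Genes of the hypoxia response and of glycolysis were followed in OCI-AML5 cells, a human line derived from acute myeloid leukemia, after CRISPR guides against CEBPD replaced non-targeting guides. The set was a list of 36 gene symbols, and a gene was taken where a row of the count table carried exactly that symbol. Of the 36, 35 had a row among the 23562 rows of the table. CA9, which encodes a membrane carbonic anhydrase, is not analysed here. The genes fall into 6 regulators of oxygen sensing (HIF1A, EPAS1, ARNT, EGLN1, EGLN3, VHL), 7 targets of the hypoxia-inducible factor outside glycolysis (VEGFA, CA9, BNIP3, BNIP3L, ADM, NDRG1, ANKRD37), 3 transporters (SLC2A1, SLC2A3, SLC16A3), 17 glycolytic enzymes and 3 regulators of glycolytic flux (PFKFB3, PFKFB4, PDK1).

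The study held 8 libraries of polyadenylated RNA, 1 for each guide. Cells in all of them had been transduced with the lentiviral vector lentiCRISPRv2, which carries Cas9 and the guide together, so the controls carried Cas9 as well. The control group was sgControl 1 to 4, non-specific guides, and the other group was sgCEBPD 1 to 4, guides against CEBPD, the gene of the transcription factor C/EBP delta. The labels name no low-oxygen treatment, no time after transduction and no repeat of a transduction, so the spread between libraries is a spread between guides and may in part be technical.

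In well oxygenated cells the prolyl hydroxylases EGLN1 and EGLN3 mark the HIF alpha subunits, HIF1A and EPAS1, for recognition by VHL and destruction. When oxygen is short the alpha subunits persist, pair with ARNT and bind a short DNA core near their target genes. Those targets include most steps of glycolysis, the glucose and lactate transporters, PDK1, which diverts pyruvate from mitochondria, and genes of vessel growth and mitophagy. HIF1A is controlled largely at the protein level, which transcript counts do not show.

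The HIF core, ACGTG on either strand (CACGT on the other), is shown here in promoters of some of the members described below. The sequences are from RefSeq on GRCh38.p14, where a promoter is 250 bases before to 50 bases after an annotated start, and they read 5′ to 3′ on the strand of the gene. Capitals mark each match and up to 20 bases are shown on either side. In CACGTG both strands hold the core. Only windows without an exon of GENCODE 29 were printed. BNIP3 lies outside its annotated gene and the others within the span of theirs, in introns ahead of a RefSeq start.
BNIP3, a mitophagy receptor of the HIF target group, chr10:131982032-131982077, minus strand: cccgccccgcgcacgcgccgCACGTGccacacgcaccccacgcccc
HK2, hexokinase, chr2:74834956-74835046, plus strand: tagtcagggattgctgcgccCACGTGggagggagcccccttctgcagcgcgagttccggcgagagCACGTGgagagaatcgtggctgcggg
PFKP, phosphofructokinase, chr10:3069030-3069074, plus strand: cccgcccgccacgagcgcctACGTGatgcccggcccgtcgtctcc
PGK1, phosphoglycerate kinase, chrX:78104026-78104089, plus strand: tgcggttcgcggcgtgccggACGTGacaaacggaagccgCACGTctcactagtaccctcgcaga
GAPDH, glyceraldehyde phosphate dehydrogenase, chr12:6535163-6535208, plus strand: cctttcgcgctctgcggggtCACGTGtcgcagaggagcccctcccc
SLC16A3, the lactate exporter, chr17:82228954-82229011, plus strand: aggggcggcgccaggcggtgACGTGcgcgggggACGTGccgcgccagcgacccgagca

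The first matched run began 134 bases before the start in BNIP3, 194 in HK2, 139 in PFKP, 202 in PGK1, 81 in GAPDH and 68 in SLC16A3. RefSeq promoters were found for 31 of the 36 members. VHL, NDRG1, SLC2A3, BNIP3L and VEGFA had no entry. Of the 31, 18 (58.1%) had the core in at least 1 promoter, against 24.9% of all 27305 genes in the table of promoters. Where a gene had 1 promoter, 9 of 20 members (45%) held it, against 21.3% of such genes. Of the genes tested over 8 libraries 9923 of 13830 had an entry, so this background is incomplete. The core was in 32.8% of those genes, in 28.3% of those with 1 promoter, and in 25.8% of all their promoters. Counted per promoter, the core was in 22 of 58 (37.9%), against 7518 of 35116 (21.4%). A match is a run of letters and not evidence of binding. The members were listed as genes of hypoxia and glycolysis, so a share above the background is not an independent result. PFKFB4 and ADM, among the members furthest above the controls in sgCEBPD 3, had no match in these windows. Of the members over 2-fold above the control mean in sgCEBPD 3, 8 had an entry and 5 of them held the core (62.5%). Among the other tested members 12 of 21 did (57.1%).

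Values are CPM, counts relative to the size of the library, scaled by TMM over the 8 libraries, whose totals were 10217751 to 11521209 counts. The targeted gene itself was at 216, 204, 205 and 202 CPM in sgControl 1 to 4 and at 107, 209, 195 and 164 CPM in sgCEBPD 1 to 4. sgCEBPD 1 and 4 lay well below the controls, sgCEBPD 3 just below the lowest of them and sgCEBPD 2 within their range, and a Cas9 cut need not lower the transcript. CEBPD did not pass edgeR's quasi-likelihood test (log2 fold change -0.29, SE 0.18, adjusted p = 0.551). Of 17 myeloid markers SPI1 was at 297 to 433 CPM, LYN at 321 to 386 CPM and CD33 at 99.0 to 143 CPM over the 8 libraries. Others were scarce, with ANPEP at 0 to 0.473 CPM, CSF2RA at 0 to 1.08 CPM and PRTN3 at 0.0908 to 2.59 CPM. The progenitor markers KIT and CD34 were lowest in sgCEBPD 3, KIT at 2.46 CPM against 18.1 to 51.9 elsewhere and CD34 at 7.86 against 13.4 to 104.

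One library stood apart. On log2 CPM over the tested genes, sgCEBPD 3 correlated with the others at 0.912 to 0.931, while the other 7 correlated with each other at 0.972 to 0.989. Each comparison was therefore made with all 8 libraries and again with sgControl 1 to 4 against sgCEBPD 1, 2 and 4, and sgCEBPD 3 is described on its own. Monocyte and macrophage markers were high in that library. Of 10 tested, 9 lay above all 7 other libraries, where 34.8% of all genes tested did. The summed level of the 14 with a row was 1510 CPM, against 614 to 681 in the controls and 659 to 703 in sgCEBPD 1, 2 and 4. CD14, at 41.0 CPM there, was at 0 in 3 controls and at most 2.74 elsewhere. ITGAM was at 210 CPM against at most 21.3 elsewhere. sgCEBPD 2 was also higher in these markers, though less so. The median log2 ratio of the 10 to the control mean was 3.00 in sgCEBPD 3 and 0.77 in sgCEBPD 2, against -0.08 to 0.18 in the controls, 0.18 in sgCEBPD 1 and -0.03 in sgCEBPD 4. Over 7 libraries none of the 10 passed edgeR's test, and 3 were higher at an unadjusted p under 0.05. Of 14 myeloid markers tested over 7 libraries 1 passed higher and 2 lower, against 0.705% and 1.31% of all genes. TYROBP was higher (log2 fold change 1.27, SE 0.23, adjusted p = 0.027, edgeR). CSF3R (-0.62, SE 0.08, adjusted p = 0.012, edgeR) and CD33 (-0.35, SE 0.06, adjusted p = 0.020, edgeR) were lower. In sgCEBPD 3 the T cell transcript CD3D was at 52.7 CPM against at most 0.459, and TRAC was at 27.8 CPM against at most 2.33. The 7 lymphoid markers with a row summed to 237 CPM there, against 14.1 to 83.1 elsewhere. Most of that sum was NCAM1, at 151 CPM against at most 76.3 elsewhere. Not all lymphoid markers were high in sgCEBPD 3. CD3G was at only 0.393 CPM, and CD79A, at 3.05 CPM, lay below the lowest control at 5.14 CPM. CD3E and CD2 had no row. Of the 14 proliferation genes, 11 lay below all 7 others, where 34.9% of all genes tested did. The 14 summed to 3038 CPM against 3797 to 4021. The part these differences play in the values of sgCEBPD 2 and 3 below was not tested, and in bulk RNA more cells of a type and more transcript per cell cannot be told apart.

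With all 8 libraries none of the 34 members that could be tested passed edgeR's test at an adjusted p of 0.05. Of all 13838 genes tested, 11 passed (0.0795%), of which 1 was higher (0.00723%) and 10 lower (0.0723%). At an unadjusted p under 0.05, 8 members were higher with sgCEBPD guides and 0 lower, where 6.56% of all genes were higher and 4.83% lower. With sgCEBPD 3 left out, PFKP and PDK1 rose. They were 2 of 34 members, against 99 of 14047 genes higher (0.705%) and 184 lower (1.31%), or 2.01% in either direction. At an unadjusted p under 0.05 there were then 8 members higher (7.3% of all genes) and 2 lower (8.16%). The fitted change was positive in 29 of 34 members over 8 libraries and in 25 of 34 over 7, against 50% and 50.3% of all genes. The median log2 fold change of the members was 0.19 over 8 libraries and 0.07 over 7, and that of all genes tested was 0.0003 and 0.001. Over 8 libraries 3 members lay above all controls with every guide (4.96% of all genes) and 0 below (4.62%). Over 7 there were 5 above (6.91%) and 1 below (7.48%).

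**Figure D1:**
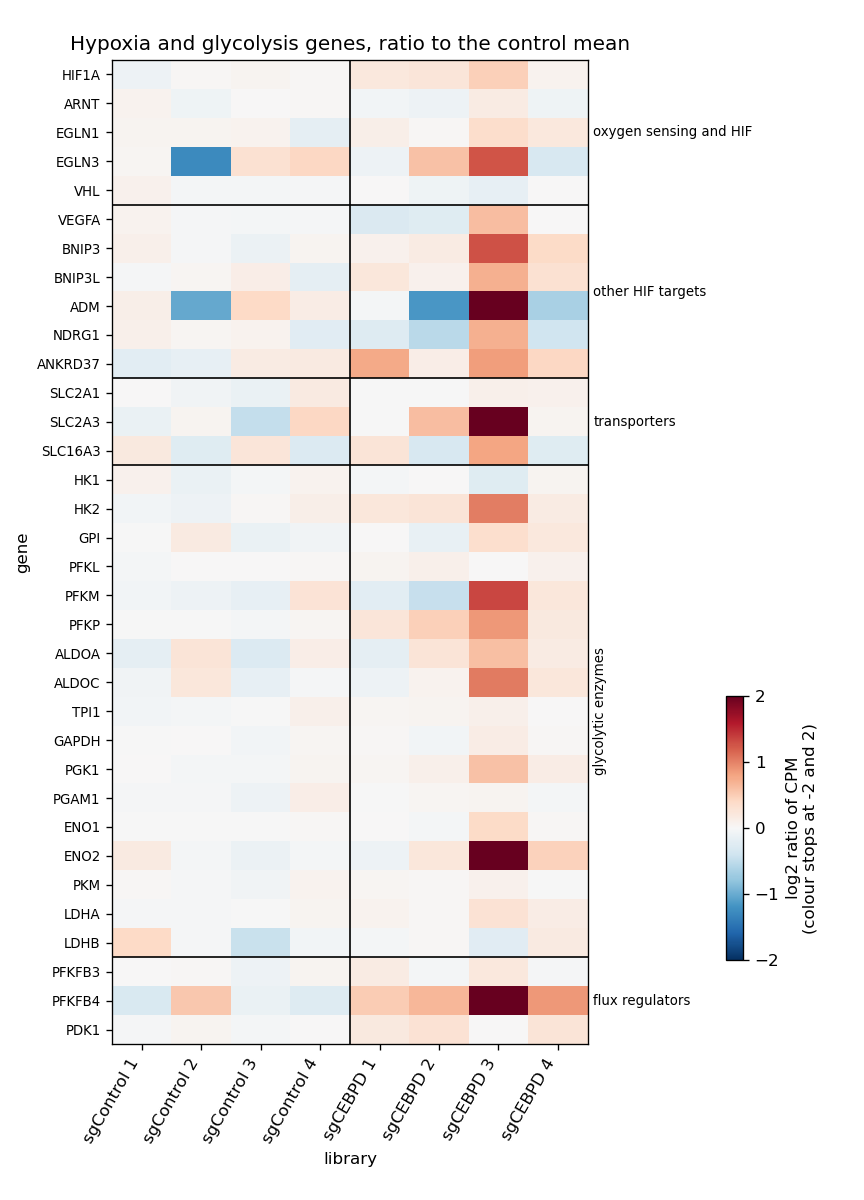
Log2 ratio of CPM to the mean of the 4 control libraries for the 34 tested members (rows, grouped by role) in the 8 libraries (columns). Colours stop at -2 and 2. Deep red cells gather in the column of sgCEBPD 3, where SLC2A3, ADM, PFKFB4 and ENO2 are past the end of the scale, while most abundant enzymes stay pale in every column.

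Among the regulators, HIF1A was slightly higher with every guide against CEBPD. It was at 53.7, 58.5, 59.7 and 58.9 CPM in sgControl 1 to 4 and at 66.5, 67.9, 80.2 and 60.3 CPM in sgCEBPD 1 to 4. The groups did not overlap, as for 4.96% of all genes in that direction, although sgCEBPD 4 was only just above the highest control. Its log2 fold change of 0.25 (SE 0.09) missed the threshold (adjusted p = 0.398, edgeR). It was 0.17 (SE 0.06, adjusted p = 0.235, edgeR) without sgCEBPD 3. The exact two-sided permutation p was 0.0286 in both comparisons, the smallest that either design allows.

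The other alpha subunit was barely counted. EPAS1 had 1, 0, 2 and 2 counts in sgControl 1 to 4 and 0, 0, 13 and 1 in sgCEBPD 1 to 4, and was too low to test. ARNT, the partner of both, was at 134, 120, 128 and 130 CPM in the controls and at 124, 120, 144 and 120 CPM in sgCEBPD 1 to 4, with a log2 fold change of -0.01 (SE 0.08). VHL, the substrate receptor of the ubiquitin ligase, stayed between 92.3 and 111 CPM in all libraries, lowest in sgCEBPD 3. EGLN1, the main oxygen-sensing hydroxylase, was at 62.3, 62.3, 63.2 and 53.1 CPM in the controls and at 65.4, 61.3, 76.5 and 70.1 CPM in sgCEBPD 1 to 4 (log2 fold change 0.18, SE 0.09, adjusted p = 0.479, edgeR). EGLN3, itself a HIF target, was low and scattered, at 5.77, 2.33, 6.90 and 7.43 CPM against 5.24, 8.42, 13.4 and 4.49 CPM. Its highest value was in sgCEBPD 3, and without that library its log2 fold change was 0.10 (SE 0.38).

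The HIF targets outside glycolysis did not move as a block in sgCEBPD 1, 2 and 4. Over 7 libraries 3 of the 6 had a positive change and 3 a negative one, and none passed the test. NDRG1, a stress-responsive gene of differentiation, had the lowest p of them and was lower. It was at 213, 205, 208 and 169 CPM in the controls and at 167, 136 and 150 CPM in sgCEBPD 1, 2 and 4. These 3 lay below all controls, as for 7.48% of all genes, but only just below sgControl 4. The log2 fold change was -0.40 (SE 0.09, adjusted p = 0.078, edgeR), and without sgControl 4 it passed at -0.46 (adjusted p = 0.024, edgeR). sgCEBPD 3, at 327 CPM, lay above every other library, and with it included the log2 fold change was -0.03 (SE 0.26).

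VEGFA, the vessel growth factor, overlapped between the groups. It was at 91.5, 85.2, 84.9 and 85.7 CPM in the controls, at 70.7, 73.4 and 87 CPM in sgCEBPD 1, 2 and 4 and at 133 CPM in sgCEBPD 3. sgCEBPD 1 and 2 lay below all controls, and sgCEBPD 4 within their range. The log2 fold change over 7 libraries was -0.17 (SE 0.07, adjusted p = 0.287, edgeR). ADM, the vasodilator peptide adrenomedullin, was at 14, 6.4, 17.1 and 14.4 CPM in the controls, at 12.6, 5.77 and 8.29 CPM in sgCEBPD 1, 2 and 4, and at 101 CPM in sgCEBPD 3. Its log2 fold change was 1.30 (SE 0.89) over 8 libraries and -0.55 (SE 0.39) over 7, so 1 library set its direction.

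The mitophagy receptors BNIP3 and BNIP3L did not pass the test in either comparison. BNIP3 was at 95.6, 87.8, 82.2 and 92.5 CPM in the controls and at 95.3, 101, 217 and 117 CPM in sgCEBPD 1 to 4. Only sgCEBPD 1 overlapped the controls. For BNIP3 the log2 fold change was 0.57 (SE 0.25, adjusted p = 0.441, edgeR) over 8 libraries and 0.22 (SE 0.08, adjusted p = 0.193, edgeR) over 7.

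BNIP3L, its close relative, was at 135, 141, 151 and 121 CPM in the controls and at 161, 146, 224 and 169 CPM in sgCEBPD 1 to 4. Its log2 fold change was 0.35 (SE 0.13, adjusted p = 0.404, edgeR) over 8 libraries and 0.21 (SE 0.08, adjusted p = 0.216, edgeR) over 7. ANKRD37, a small ankyrin repeat gene, was near the limit of counting at 2.54, 2.62, 3.27 and 3.30 CPM in the controls and 4.96, 3.22, 5.21 and 3.89 CPM in sgCEBPD 1 to 4 (log2 fold change 0.56, SE 0.21, adjusted p = 0.398, edgeR).

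Of the transporters, SLC2A1, the basal glucose carrier GLUT1, varied least. It was at 79.2, 74.6, 71.6 and 88.6 CPM in the controls and at 78.3, 78.0, 84 and 83.2 CPM in sgCEBPD 1 to 4, a log2 fold change of 0.04 (SE 0.08). SLC2A3, the high-affinity carrier GLUT3, was at 22.2, 25.3, 17.6 and 32.7 CPM in the controls, at 24.3, 37.7 and 25.5 CPM in sgCEBPD 1, 2 and 4, and at 293 CPM in sgCEBPD 3. That library was 12-fold above the control mean, and without it the groups overlapped (log2 fold change 0.25, SE 0.24, adjusted p = 0.704, edgeR). Reads of SLC2A3 may be shared with its near copy SLC2A14, so its level is uncertain.

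SLC16A3, which exports lactate, split both groups into a higher and a lower pair, with guides 1 and 3 above guides 2 and 4 in each. It was at 291, 216, 302 and 211 CPM in sgControl 1 to 4 and at 306, 205, 440 and 216 CPM in sgCEBPD 1 to 4. The log2 fold change was 0.19 (SE 0.25, adjusted p = 0.748, edgeR) over 8 libraries and -0.07 (SE 0.21) over 7.

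The 17 glycolytic enzymes changed little on the whole. Per kilobase of exon, which allows genes to be compared, the most abundant in the controls were GAPDH at 591 ± 16.1 CPM per kb and ENO1 at 557 ± 7.11 CPM per kb (SD, n = 4). PGAM1 (278 ± 19.0) and TPI1 (249 ± 12.6) came next, then PGK1 at 187, LDHA at 186 and PKM at 167 CPM per kb. This order depends on the length used. Per kilobase of the longest transcript ENO1 (1153) stood above GAPDH (940), and LDHA (479) and PKM (476) above PGAM1 (390) and TPI1 (381). By either length the enzymes of the first committed steps were lower, on exon unions with PFKP at 53.3, HK2 at 42.9 and PFKL at 36.6 CPM per kb. ALDOA and LDHB, abundant enzymes in most cells, were at only 2.54 to 4.81 CPM in all libraries. In GENCODE 29, 42.3% of the exonic bases of ALDOA and 33.4% of those of LDHB are shared with another gene on the same strand, so their levels in this table are uncertain.

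PFKP, the platelet-type phosphofructokinase and the main form in these libraries, was the member with the lowest p. It was at 257, 258, 251 and 266 CPM in the controls and at 307, 360, 471 and 294 CPM in sgCEBPD 1 to 4. All 4 guides against CEBPD lay above all 4 controls, as for 4.96% of all genes. The controls averaged 258 ± 6.06 CPM (SD, n = 4), and sgCEBPD 1, 2 and 4 averaged 320 ± 34.9 CPM (SD, n = 3). The highest of these 3 was sgCEBPD 2, the library that also had higher monocyte markers, and without it the log2 fold change over 7 libraries was 0.22 (adjusted p = 0.053, edgeR).

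Over 7 libraries PFKP rose 1.24-fold (log2 0.31, SE 0.06, adjusted p = 0.038, edgeR). Over 8 it was 0.47 (SE 0.14), and the wider spread left the adjusted p at 0.311. The exact two-sided permutation p was 0.0286 in both. The call over 7 libraries was lost when any 1 of the 4 controls, sgCEBPD 1 or sgCEBPD 2 was left out, with adjusted p in edgeR from 0.053 to 0.125, while the log2 fold change stayed between 0.22 and 0.37 with any 1 of the 7 left out. The gene lies at chr10:3066333-3137712 on the plus strand.

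HK2, the inducible hexokinase, was likewise higher with every guide against CEBPD. It was at 249, 242, 265 and 283 CPM in the controls and at 303, 312, 529 and 290 CPM in sgCEBPD 1 to 4. The groups had no overlap, as for 4.96% of all genes. For HK2 the log2 fold change was 0.46 (SE 0.19, adjusted p = 0.425, edgeR) over 8 libraries and 0.22 (SE 0.06, adjusted p = 0.091, edgeR) over 7, so the difference missed the threshold in both. Over 7 libraries it passed without sgControl 4 (0.26, adjusted p = 0.049, edgeR). HK1, the constitutive hexokinase, was at 130 to 150 CPM in the controls, at 138 to 147 CPM in sgCEBPD 1, 2 and 4 and at 120 CPM in sgCEBPD 3, the lowest of all.

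**Figure D2:**
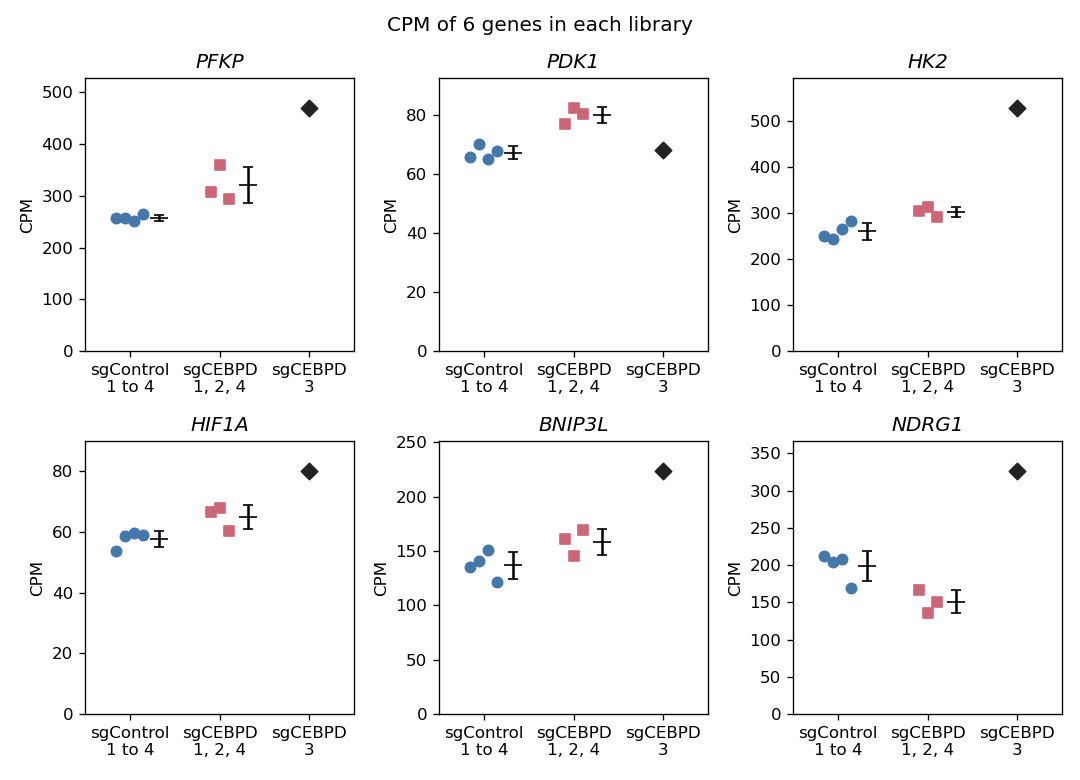
CPM (axes from 0) of PFKP, PDK1, HK2, HIF1A, BNIP3L and NDRG1 in sgControl 1 to 4 (circles), sgCEBPD 1, 2 and 4 (squares) and sgCEBPD 3 (diamond). Bars give the mean and SD of the 4 controls and of sgCEBPD 1, 2 and 4. PFKP, HK2 and HIF1A are above the controls in every sgCEBPD library, PDK1 in all but sgCEBPD 3, and NDRG1 is lower in all but sgCEBPD 3.

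Further down the pathway the differences were small. PGK1, the first step that yields ATP, was at 1034, 1004, 1004 and 1073 CPM in the controls and at 1056, 1104, 1543 and 1146 CPM in sgCEBPD 1 to 4 (over 7 libraries log2 fold change 0.10, SE 0.04, adjusted p = 0.279, edgeR). ENO1, the main enolase, was at 2913, 2914, 2928 and 2992 CPM in the controls, at 2949, 2857 and 2986 CPM in sgCEBPD 1, 2 and 4 and at 3820 CPM in sgCEBPD 3. Its log2 fold change over 7 libraries was -0.003 (SE 0.03). LDHA, which turns pyruvate into lactate, was at 1140 to 1201 CPM in the controls, at 1170 to 1287 CPM in sgCEBPD 1, 2 and 4 and at 1406 CPM in sgCEBPD 3.

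GAPDH, PGAM1, TPI1 and PKM differed least among the abundant enzymes, with log2 fold changes from 0.01 to 0.05 over 8 libraries. GPI, which isomerises glucose phosphate, had a log2 fold change of 0.12, with controls at 506 to 631 CPM and the sgCEBPD libraries at 502 to 702 CPM. PFKL, the liver-type phosphofructokinase, was at 317 to 334 CPM in the controls and at 339, 349 and 347 CPM in sgCEBPD 1, 2 and 4. These did not overlap, as for 6.91% of all genes (over 7 libraries log2 fold change 0.08, SE 0.04, adjusted p = 0.357, edgeR). PFKL was at 330 CPM in sgCEBPD 3.

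The less abundant forms of enolase, aldolase and phosphofructokinase had their high values in sgCEBPD 3. ENO2, the neuronal-type enolase, was at 44.8, 38.2, 36.3 and 38.3 CPM in the controls, at 36.8, 46.1 and 54.0 CPM in sgCEBPD 1, 2 and 4, and at 175 CPM in sgCEBPD 3. PFKM, the muscle-type phosphofructokinase, was at 4.37, 4.26, 4.09 and 5.51 CPM in the controls, at 3.93, 3.31 and 5.36 CPM in sgCEBPD 1, 2 and 4, and at 11.5 CPM in sgCEBPD 3. ALDOC was at 53.5 to 70.2 CPM in the controls, at 55.6 to 70.0 CPM in sgCEBPD 1, 2 and 4, and at 122 CPM in sgCEBPD 3. In all 3 genes the groups overlapped without sgCEBPD 3, and none passed the test (log2 fold change over 7 libraries 0.21, SE 0.13, for ENO2 and -0.11, SE 0.21, for PFKM).

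The regulators of flux gave the second member past the test. PDK1, the kinase that inhibits pyruvate dehydrogenase, was at 65.8, 70.0, 65.1 and 67.8 CPM in the controls and at 76.9, 82.4 and 80.3 CPM in sgCEBPD 1, 2 and 4. These 3 lay above all controls, as for 6.91% of all genes. sgCEBPD 3, at 67.9 CPM, was within the range of the controls.

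Over 7 libraries PDK1 rose 1.19-fold (log2 0.25, SE 0.05, adjusted p = 0.041, edgeR). The exact two-sided permutation p was 0.0286 over 7 libraries and 0.0571 over 8. Over 8 libraries the log2 fold change was 0.19 (SE 0.08, adjusted p = 0.409, edgeR). The call over 7 libraries was kept only without sgControl 2 and lost without any 1 of the other 6, with adjusted p in edgeR up to 0.136. The gene lies at chr2:172555373-172608669 on the plus strand.

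PFKFB4 and PFKFB3 make and degrade fructose 2,6-bisphosphate, the activator of phosphofructokinase. PFKFB4 was at 18.9, 33.6, 21.2 and 19.4 CPM in the controls and at 33.1, 36.9, 125 and 42.5 CPM in sgCEBPD 1 to 4. Only the high sgControl 2 overlapped with sgCEBPD 1. For PFKFB4 the log2 fold change was 1.35 (SE 0.45, adjusted p = 0.345, edgeR) over 8 libraries and 0.69 (SE 0.21, adjusted p = 0.189, edgeR) over 7. Without sgControl 2, over 7 libraries, it became 0.92 with an adjusted p of 0.0034 in edgeR. PFKFB3 was at 74.5, 75.5, 68.9 and 76.9 CPM in the controls and at 83.0, 71.8, 85.9 and 72.5 CPM in sgCEBPD 1 to 4 (log2 fold change 0.08, SE 0.08). Together the 3 flux regulators summed to 155 to 179 CPM in the controls, 191 to 195 CPM in sgCEBPD 1, 2 and 4 and 279 CPM in sgCEBPD 3.

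In sgCEBPD 3 most members were high. Of the 34 tested, 26 lay above all 7 other libraries and 2 (VHL and HK1) below all of them, where 34.8% of all genes lay above and 34.9% below. Members more than 2-fold above the control mean numbered 9, against 8.4% of all genes, and 0 members were that far below it, against 8.66%. They were SLC2A3 (12-fold), ADM (7.81-fold), PFKFB4 (5.37-fold), ENO2 (4.43-fold), PFKM (2.52-fold), BNIP3 (2.42-fold), EGLN3 (2.38-fold), ALDOC (2.04-fold) and HK2 (2.03-fold). ALDOC and HK2 were just inside that bound, and PFKP (1.83-fold) and ANKRD37 (1.78-fold) just outside it. This is 1 library, so these ratios have no replicate check.

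**Figure D3:**
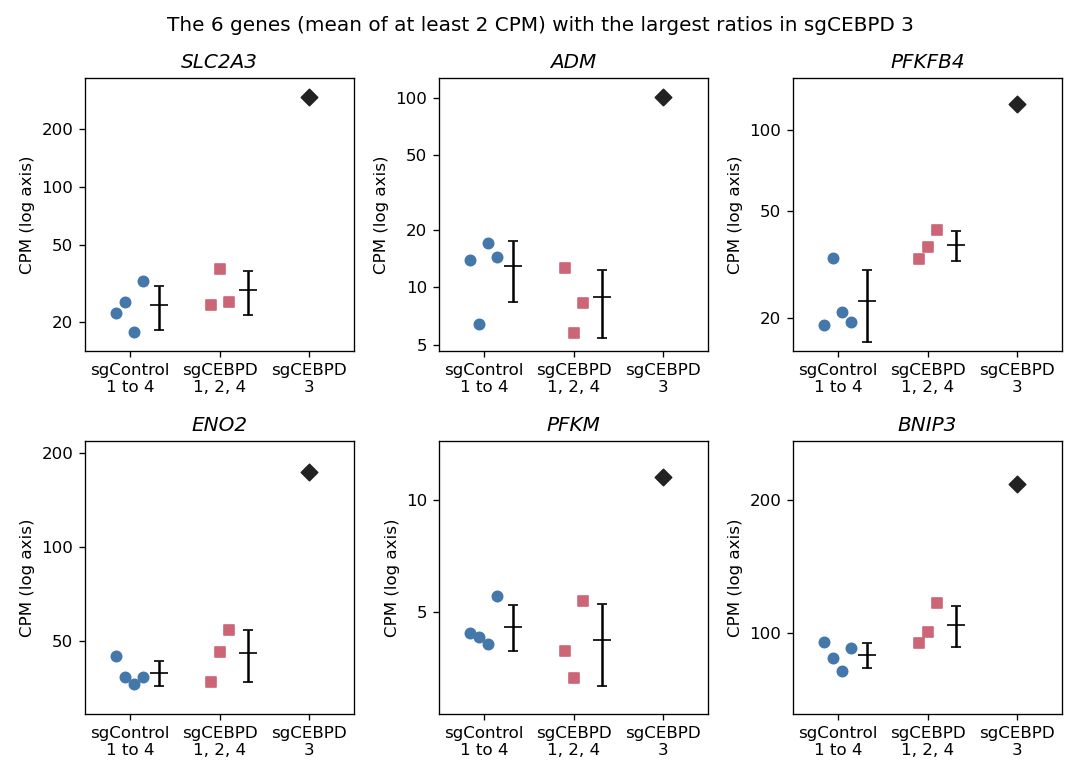
CPM on log axes of the 6 members, of those with a mean of at least 2 CPM, with the largest ratios in sgCEBPD 3 to the control mean, in sgControl 1 to 4 (circles), sgCEBPD 1, 2 and 4 (squares) and sgCEBPD 3 (diamond). Bars give the mean and SD of the controls and of sgCEBPD 1, 2 and 4. The diamond is the highest point in each panel, from 11.5 CPM for PFKM to 293 CPM for SLC2A3, while the circles and squares share a range or lie close.

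Glycolytic enzymes and the other HIF targets were then set side by side. Over 8 libraries the median log2 fold change was 0.12 for the 17 enzymes, with 15 positive, and 0.45 for the 6 other HIF targets, with 5 positive. The difference of the medians was -0.34. Without sgCEBPD 3 the medians were 0.06, with 14 positive, and 0.02, with 3 positive, and the difference was 0.04.

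The gap thus came with 1 library. In sgCEBPD 3 the median log2 ratio to the control mean was 0.34 for the enzymes and 0.77 for the other HIF targets, where that of all genes tested was -0.014. All 6 other HIF targets lay above all 7 other libraries there, and 12 of the 17 enzymes did, where 34.8% of all genes did. In single libraries without sgCEBPD 3 the enzyme medians stayed between -0.05 and 0.16, and those of the other HIF targets between -0.08 and 0.15. The summed CPM of the other HIF targets was 486 to 552 in the controls, 465 to 535 in sgCEBPD 1, 2 and 4 and 1007 in sgCEBPD 3. That of the enzymes was 11061 to 11757, 11504 to 11867 and 14167.

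The 2 groups also differed in how alike their members were. Over 7 libraries the log2 fold changes of the enzymes ran from -0.11 (PFKM) to 0.31 (PFKP), and those of the other HIF targets from -0.55 (ADM) to 0.45 (ANKRD37). ADM and ANKRD37 had standard errors of 0.39 and 0.21, and PFKM one of 0.21. Without ALDOA and LDHB the median of the enzymes was again 0.12 over 8 libraries, and 0.04 instead of 0.06 over 7.

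**Figure D4:**
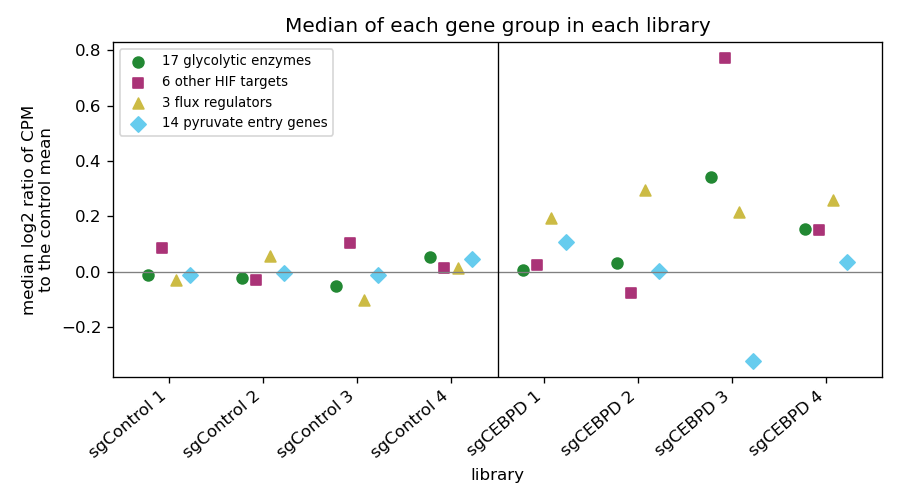
Median log2 ratio of CPM to the control mean, in each of the 8 libraries, over 17 glycolytic enzymes, 6 other HIF targets, 3 flux regulators and 14 genes of pyruvate entry into mitochondria. The other HIF targets stand at 0.77 and the enzymes at 0.34 in sgCEBPD 3, where the pyruvate entry genes are at -0.32. Elsewhere enzymes and HIF targets lie within 0.16 of 0. The flux regulators are at 0.19, 0.29 and 0.26 in sgCEBPD 1, 2 and 4, against -0.10 to 0.06 in the controls.

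Within families the balance of forms moved in sgCEBPD 3. As a share of CPM per kilobase over HK1, HK2 and HK3, HK2 made up 62.6% to 65.8% in the controls, 66.7% to 69.0% in sgCEBPD 1, 2 and 4 and 78.2% in sgCEBPD 3. PFKP made up 58.1% to 59.6% of phosphofructokinase in the controls, 60.6% to 65.3% in sgCEBPD 1, 2 and 4 and 71.6% in sgCEBPD 3. For both enzymes the shares in all sgCEBPD libraries lay above those in all controls.

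The other families did not separate the groups in that way. SLC2A3 made up 15.9% to 22.1% of the pair with SLC2A1 in the controls, 19.0% to 27.0% in sgCEBPD 1, 2 and 4 and 72.8% in sgCEBPD 3. PFKFB4 made up 20.1% to 30.8% of the pair with PFKFB3 in the controls, 28.5% to 37.0% in sgCEBPD 1, 2 and 4 and 59.3% in sgCEBPD 3. ENO2 took 1.51% to 2.18% of enolase in the other 7 libraries and was 5.33% in sgCEBPD 3, so ENO1 remained the main form throughout.

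**Figure D5:**
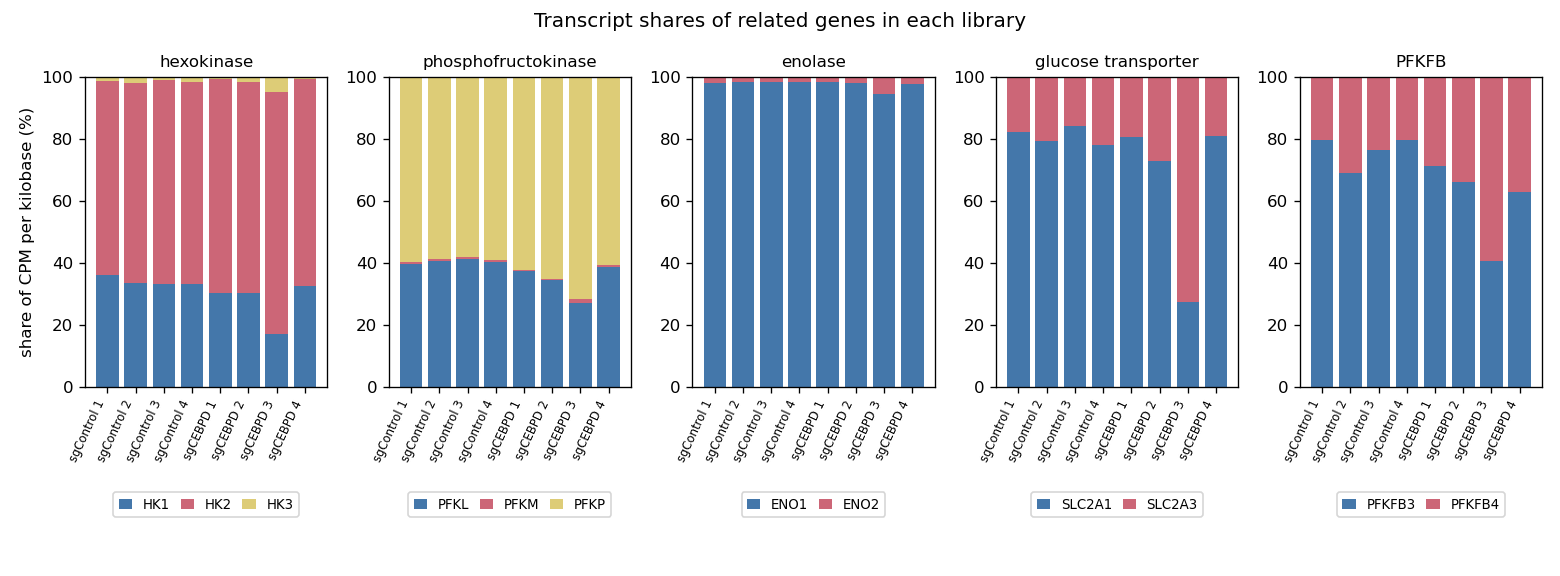
Share (%) of CPM per kilobase of exon taken by each gene of 5 families, in each of the 8 libraries. HK2, PFKP, SLC2A3, PFKFB4 and ENO2 take their largest shares in sgCEBPD 3, for instance 78.2% for HK2 and 72.8% for SLC2A3.

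Genes of the same pathways outside the 36 were read from separate lists. Of 35 other HIF targets 29 were tested, and 22 had a positive change over 8 libraries and 17 over 7. None passed over 8 libraries, where 4 were higher and 2 lower at an unadjusted p under 0.05, and 1 passed over 7. That gene was P4HB, the beta subunit of collagen prolyl hydroxylase, and it fell. It was at 960, 841, 829 and 901 CPM in the controls and at 757, 696, 685 and 757 CPM in sgCEBPD 1 to 4, below all controls with every guide, as for 4.62% of all genes. The log2 fold change was -0.26 (SE 0.06, adjusted p = 0.045, edgeR) over 7 libraries and -0.29 (SE 0.07, adjusted p = 0.235, edgeR) over 8, and the call over 7 held only without sgControl 2 when 1 library was left out.

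In sgCEBPD 3, 20 of these 29 lay above all other libraries, where 34.8% of all genes did. More than 2-fold above the control mean were 8, against 8.4% of all genes. DDIT4, an inhibitor of mTOR signalling induced by hypoxia and other stresses, was picked out after its values were seen. It was at 20.4, 20.8, 27.9 and 41.8 CPM in the controls and at 49.0, 74.9, 181 and 69.5 CPM in sgCEBPD 1 to 4. The groups did not overlap, as for 4.96% of all genes, and DDIT4 did not pass the test in either comparison.

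None of 11 other HIF regulators passed in either comparison. CITED2, which competes with HIF for its coactivator, was at 332, 412, 367 and 402 CPM in the controls and at 447, 510, 608 and 443 CPM in sgCEBPD 1 to 4 (log2 fold change 0.41, SE 0.12, adjusted p = 0.292, edgeR). All 4 lay above all controls, as for 4.96% of all genes. EP300, that coactivator, was at 199, 189, 193 and 181 CPM against 197, 212, 260 and 210 CPM (0.21, SE 0.09, adjusted p = 0.438, edgeR).

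None of 10 further tested isozymes and carriers of glycolysis passed either. ADPGK, a glucokinase that uses ADP, was at 158, 155, 157 and 162 CPM in the controls and at 142, 150, 168 and 141 CPM in sgCEBPD 1 to 4 (over 7 libraries log2 fold change -0.13, SE 0.04, adjusted p = 0.189, edgeR). SLC2A6, a sugar carrier, was at 3.15, 3.39, 3.91 and 6.61 CPM against 6.08, 7.76, 14.2 and 5.18 CPM (over 8 libraries 0.96, SE 0.37, adjusted p = 0.409, edgeR).

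Neighbouring routes of sugar and pyruvate use were low or mixed in sgCEBPD 3. Of the 14 genes of pyruvate entry, 8 were below all 7 other libraries and 2 above, with a median log2 ratio of -0.32, and of the 7 genes of the pentose phosphate pathway 5 were below and 1 above, with a median of -0.27. Of 9 genes of gluconeogenesis and glycogen 3 were above and 1 below, with a median of 0.37. Of all genes, 34.8% were above and 34.9% below. The median of 0.37 was the value of FBP1, at 3.05 CPM and within the range of the other 7 libraries. G6PC3, UGP2, PGM2 and PGM1 were below the control mean and the rest above it. None of the 3 lists had a gene past the test in either comparison. At an unadjusted p under 0.05, 2 pyruvate genes were higher over 7 libraries and 0 over 8. In both comparisons 1 pentose phosphate gene was higher, and of the gluconeogenesis and glycogen genes 1 was higher and 1 lower. The shares of all genes are those given above for that p, 6.56% higher and 4.83% lower over 8 libraries, and 7.3% and 8.16% over 7.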

How the data were processed

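RNA from 8 OCI-AML5 libraries, 4 with control guides and 4 with guides against CEBPD, was read from a table of raw counts per gene deposited by the authors. HISAT2, FastQC, DESeq2 and the build hg38 are named in the submitters' processing notes. Versions, counter, strandedness and annotation are not given in the sources used here. Reads of antisense, overlapping or near-identical genes (ALDOA, LDHB, SLC2A3, PGAM1, GAPDH, PGK1, LDHA) may be misassigned. Of the rows, 116 repeated a symbol, and none of these was a member.

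The 36 members and all gene lists were chosen with earlier results of these data known, as was the second comparison without sgCEBPD 3. The counts went into edgeR 4.0.16 (R 4.3.3): filterByExpr by group, TMM, a robust quasi-likelihood fit with the group as the only term, and Benjamini-Hochberg adjustment over all genes tested. An SE was obtained as the size of the log2 fold change over the root of its F statistic. Exact permutation tests ran over 70 assignments (8 libraries) or 35 (7 libraries). Lists were described by counts and medians. Lengths were GENCODE 29 exon unions on GRCh38, which is hg38. Genes given with every library value were those past the test, the 3 with the lowest p in each role and comparison, the 6 with the largest ratios in sgCEBPD 3 (mean at or over 2 CPM) and the highest of each role; of other lists, those past the test and otherwise the 2 with the lowest p. VEGFA was given besides. Alternatives were DESeq2 1.42.0, limma-voom 3.58.1, RLE or library totals, a mean of at least 5 CPM, no filter, a replicate block, 1 surrogate variable (sva 3.50.0), an adjusted p under 0.01, a wider list of HIF targets, longest transcripts and each library left out. Functions were tested on simulated data with folds of 1.5, 2 and 4. Of the 1.5-fold changes, 20% were recovered over 8 libraries and 52.0% over 7. Unchanged genes made up 6.06% of the calls over 8 libraries and 10.4% over 7. No simulated library stood apart as sgCEBPD 3 did, so these shares need not hold for the 8 real libraries.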

Additional observations from a re-analysis of the deposited data

Results flagged for a closer look

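For each member the 4 libraries of each group were checked for 1 that lay far from the other 3, as judged by its gap relative to the range of the group (Dixon's 95% bound). Of 70 groups, 14 held such a library, where chance alone gives about 3.5. In 9 of the 14 it was sgCEBPD 3. No such count over all genes is given here, so the excess is not shown to be particular to the members. Of all genes tested, 34.8% lay above and 34.9% below all 7 other libraries in sgCEBPD 3. That library was far above the other sgCEBPD libraries for EPAS1 (1.28 CPM, the others 0 to 0.0864), ARNT (144, others at most 124), ADM (101, others at most 12.6), NDRG1 (327, others at most 167), SLC2A3 (293, others at most 37.7), HK2 (529, others at most 312), ENO1 (3820, others at most 2986), ENO2 (175, others at most 54.0) and PFKFB4 (125, others at most 42.5).

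The remaining 5 were single controls. sgControl 4 was low for EGLN1 (53.1 CPM, the others at least 62.3) and high for LDHA (1201, others at most 1145). sgControl 1 was high for VHL (111, others at most 103) and VEGFA (91.5, others at most 85.7). sgControl 2 was high for PFKFB4 (33.6, others at most 21.2).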

How the results depend on the processing

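Over 8 libraries the count of members past the test was 0, but 3 (HK2, PDK1 and PFKP) with 1 surrogate variable, and 0 to 2 with 1 library left out (2 without sgCEBPD 3). Over 7 it was 2, and it was 5 with DESeq2 (HK2, NDRG1, PDK1, PFKFB4 and PFKP), 1 with library totals, 0 with the replicate block, 0 with 1 surrogate variable, 0 at an adjusted p under 0.01 and 0 to 2 with 1 library left out (0 without sgControl 1 or 3 or sgCEBPD 1 or 2, PDK1 and PFKFB4 without sgControl 2, HK2 and NDRG1 without sgControl 4, PFKP without sgCEBPD 4). All genes past the test over 8 libraries numbered 11, and 301 with DESeq2, 20 without a filter, 1 with the replicate block, 360 with 1 surrogate variable, 1 at an adjusted p under 0.01 and 0 to 283 with 1 library left out. Over 7 they numbered 283, and 609 with DESeq2, 39 with 1 surrogate variable, 40 at an adjusted p under 0.01 and 66 to 312 with 1 library left out (66 without sgControl 1, 139 to 152 without sgControl 3 or 4 or sgCEBPD 1 or 2). The cause was not tested, except that the 283 are the calls without sgCEBPD 3.

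The median of the enzymes minus that of the other HIF targets over 8 libraries (-0.34) was -0.22 with limma-voom, -0.24 with a mean of at least 5 CPM, -0.24 with the replicate block, 0.0062 with 1 surrogate variable, -0.16 with the wider list and -0.38 to 0.036 with 1 library left out. Over 7 (0.04) it was 0.23 with at least 5 CPM, -0.087 with 1 surrogate variable, -0.057 with the wider list and 0.0079 to 0.096 with 1 library left out. With library totals the medians of sgCEBPD 3 were 0.26 for enzymes and 0.69 for other HIF targets. With longest transcripts the control shares were 62.6% for PFKP and 55.2% for HK2.

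Deviations from the group means were nearly uncorrelated between same-numbered guides (0.03, 0.06, -0.08 and -0.04 for guides 1 to 4). The sgCEBPD mean includes sgCEBPD 3, which stood apart and shifts the deviations of the other sgCEBPD libraries. These values therefore cannot decide whether the numbers pair libraries. The guide number as a replicate block lost PFKP (log2 fold change 0.30, adjusted p = 0.079, edgeR) and PDK1 (0.23, adjusted p = 0.114, edgeR) over 7 libraries. Both were also lost with 1 surrogate variable, and PDK1 with library totals (adjusted p = 0.0503, edgeR).

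Several log2 fold changes turned sign, and none of these passed in either sign. With the replicate block over 7 libraries they became 0.012 for SLC16A3, -0.015 for SLC2A1 and -4.9e-05 for PFKFB3. With 1 surrogate variable they became -0.038 for SLC16A3, -0.42 for ADM and -0.070 for PFKM over 8 libraries, and -0.16 for EGLN3, -0.12 for SLC2A3, 0.15 for SLC16A3, 0.0063 for ADM, 0.11 for PFKM and 0.023 for ENO1 over 7. ENO1 over 7 was 0.00037 with DESeq2 and 0.00057 without a filter. With 1 library left out of 8 the ranges were -0.074 to 0.33 for SLC16A3, -0.00071 to 0.11 for SLC2A1, -0.079 to 0.014 for ARNT, -0.40 to 0.11 for NDRG1, -0.55 to 1.65 for ADM, -0.11 to 0.60 for PFKM and -0.0027 to 0.15 for ENO1. Left out of 7, they were -0.21 to 0.28 for EGLN3, -0.27 to 0.036 for SLC16A3, -0.018 to 0.090 for SLC2A1, -0.033 to 0.075 for PFKFB3, -0.33 to 0.033 for PFKM and -0.017 to 0.019 for ENO1. Members under about 5 CPM (ANKRD37, PFKM, ALDOA, LDHB) are limited by counting.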
